A study of Mus musculus with 9 samples.

Results

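The p53 target genes are described here as 37 named genes, Trp53 itself and 36 genes that are regulated by or act around it, across bulk RNA libraries of mouse cells that are neural by label. The members were taken by name, with earlier results of these data known, and all 37 were found among the 24100 genes counted. They were sorted by outcome from textbook roles: 8 in regulation and feedback, 5 in arrest, 12 in apoptosis, 6 in DNA repair and 6 in metabolism or secretion. All 37 passed the filter on low counts, so every member is in every test.

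The cells came from mouse embryonic stem cells that carry a stable PiggyBac transgene, a DNA transposon insertion, for histone H4 with an HA peptide tag. The H4WT group expresses the wild-type tagged histone. In the H4K91R group 1 lysine of the tagged histone is replaced by arginine, and in the H4K91Q group it is replaced by glutamine. All groups thus share the transgene, the tag and the differentiation to cells labelled neural. The library names in the counts also share a further code in all groups, which the sources used here do not explain. The labels do not name the promoter that drives the transgene or a change to the cells' own H4 genes, and they do not say whether a group is 1 clone or a pool. Each group had 3 libraries, and nothing states that they came from separate differentiations, so that p-values measure the spread between these libraries, which may be technical.

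The transcription factor p53 is held at a low level in unstressed cells by Mdm2, a ubiquitin ligase that is itself a p53 target, and it is controlled largely through the stability and modification of the protein and less through its messenger RNA. After DNA damage or other stress it switches on genes that stop the cell cycle, that start apoptosis, that repair DNA and that adjust metabolism, along with genes that shut the response off again. Proliferating embryonic and neural progenitor cells are known to be sensitive to p53.

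Total counts ran from 8970553 to 28887501 per library, with a median of 16364686, and the counts of single members ran from 8 to 36596. Across genes, which are not independent replicates, log2 CPM (counts scaled to library size by TMM) correlated at 0.987 to 0.993 within groups and at 0.942 to 0.968 across H4WT and mutant libraries. In each mutant 9 of 10 tested neural progenitor genes and 10 of 12 neuronal genes rose, while all 9 tested smooth muscle genes fell. In H4K91Q 1 gene of each neural list fell. Of all tested genes 20.9% rose and 25.1% fell in H4K91R, and 22.5% rose and 23.8% fell in H4K91Q. Nes, the progenitor gene that did not rise, stood at 168 ± 33.2 CPM in H4WT (SD, n = 3). It changed by -0.12 in H4K91R, without a call, and by -0.49 in H4K91Q. Col3a1, a fibrillar collagen gene, stood at 2846 ± 195 CPM in H4WT (SD, n = 3), above Map2 and Tubb3 of neurons at 43.4 ± 7.79 and 71.9 ± 15.5 CPM, so the neural markers were present in H4WT beside strong mesenchymal ones. In bulk RNA, fewer cells of a type and less RNA per cell cannot be told apart.

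H4K91R replicate 1 stood apart among the members. It was the highest library of its group in 30 of 37 members, against 30.4% of all tested genes. The median member in it was at -0.49 on the log2 scale against the H4WT mean, with -0.74 and -0.72 in replicates 2 and 3. The 3 H4K91Q libraries were at -0.75, -0.77 and -0.68. Without H4K91R replicate 1, 28 members fell in H4K91R, 1 more than with it, and the median change against H4WT was -0.73 in place of -0.64.

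The sequence that p53 binds is a pair of decamers, and the promoter windows of the members were searched for it. The windows were RefSeq's, on GRCm38.p6, from 250 bases before an annotated start to 50 after it, and 28 of 37 members had 1 or more. The motif is the p53 response element, searched with the core C and G of each decamer intact, at most 2 mismatches elsewhere over both decamers and a spacer of 0 to 13 bases, and since its consensus is its own reverse complement both strands were read. It was found for 7 of the 28 members (25%), against 4.47% of the 11629 tested genes with a window. With at most 1 mismatch it was found for 4 of the 28 members (14.3%) and 0.611% of tested genes. The matches of these 7 members are shown, and most members with a window had none. The members were named as genes of the p53 pathway, so their share of matches says nothing about the mutants. A match is a description of letters and not a bound site. The decamers are in capitals with 5 flanking bases on each side, 5′ to 3′ on the strand of the gene:
Cdkn1a, chr17:29090901-29090942, plus strand: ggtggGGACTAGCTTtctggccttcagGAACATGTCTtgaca
Ccng1, chr11:40755457-40755486, minus strand: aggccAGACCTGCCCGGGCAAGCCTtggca
Rps27l, chr9:66946291-66946320, plus strand: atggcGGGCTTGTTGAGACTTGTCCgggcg
Gtse1, chr15:85859940-85859969, plus strand: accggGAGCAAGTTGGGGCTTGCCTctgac
Bax, chr7:45467074-45467104, minus strand: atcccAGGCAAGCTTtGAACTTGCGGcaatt
Zfp365, chr10:67912701-67912730, minus strand: tagcaAGACTAGGCTGGGCAAGACTggcac
Sesn1, chr10:41887248-41887280, plus strand: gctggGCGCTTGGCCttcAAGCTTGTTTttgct

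The Cdkn1a match had 0 mismatches and a spacer of 12 bases, the Ccng1, Rps27l and Gtse1 matches had 1 mismatch and a spacer of 0, and the Bax, Zfp365 and Sesn1 matches had 2 mismatches. Positions count from the annotated transcript start of the window, which need not be the outer end of the gene. The Cdkn1a match began 73 bases before its start, which is the gene's first base, and the Ccng1 match 195 bases before a start 23 bases inside the gene. The Gtse1 match lay across a start 255 bases inside the gene, and the Rps27l and Sesn1 windows belong to starts 1789 and 76865 bases inside theirs. Of these 7 members 6 fell in both mutants and Sesn1 rose in both. Of the 21 members with a window and no match, 16 fell in H4K91R and 18 in H4K91Q. Of the 9 members without a window, 5 fell in H4K91R and 6 in H4K91Q, and 1 rose in each. Of all tested genes 25.1% fell in H4K91R and 23.8% in H4K91Q. A link between a match and the change of a member was not tested.

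Most p53 target genes were lower in both histone mutants than in H4WT, while Trp53 was not called in either (in H4K91Q it passed narrowly as a fall when replicate numbers were paired). In H4K91R 27 of 37 members fell and 2 rose, and in H4K91Q 30 fell and 2 rose (edgeR quasi-likelihood test, Benjamini-Hochberg adjusted over 14761 genes, adjusted p below 0.05). Of all tested genes 25.1% fell and 20.9% rose in H4K91R (46% called), and 23.8% fell and 22.5% rose in H4K91Q (46.3% called). The joint test of any difference among the 3 groups called 32 of 37 members, against 50.6% of all tested genes. At least 2-fold lower were 12 members in H4K91R and 13 in H4K91Q, against 4.59% and 4.17% of all tested genes. The 2 mutants were compared with the same 3 H4WT libraries, so their results are not independent of each other. The members were chosen with earlier results of these data known, so their shares beside those of all genes are a description and not independent support.

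The median log2 change over the members was -0.64 in H4K91R and -0.65 in H4K91Q, with -0.03 and 0.01 over all tested genes. In 27 members all H4K91R libraries lay below all H4WT libraries, against 30.1% of tested genes, and in 31 members all H4K91Q libraries did, against 27.7%. The reverse held for 2 members in H4K91R and 4 in H4K91Q, against 25% and 27.4% of tested genes. With library size scaling in place of TMM, the median over all genes moved to 0.15 and 0.18, the member counts became 25 fallen and 4 risen in H4K91R and 29 fallen and 4 risen in H4K91Q, and all genes split into 5031 risen and 2013 fallen in H4K91R, in place of 3092 and 3705, and into 5557 and 2069 in H4K91Q, in place of 3314 and 3516. The members' own median moved to -0.45 in H4K91R and -0.48 in H4K91Q. Relative to the median of all genes it was -0.61 in H4K91R under both scalings and -0.66 in H4K91Q under both. A change of scaling shifts all genes by nearly the same amount, so this difference could hardly move and does not test the scaling.

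**Figure D1:**
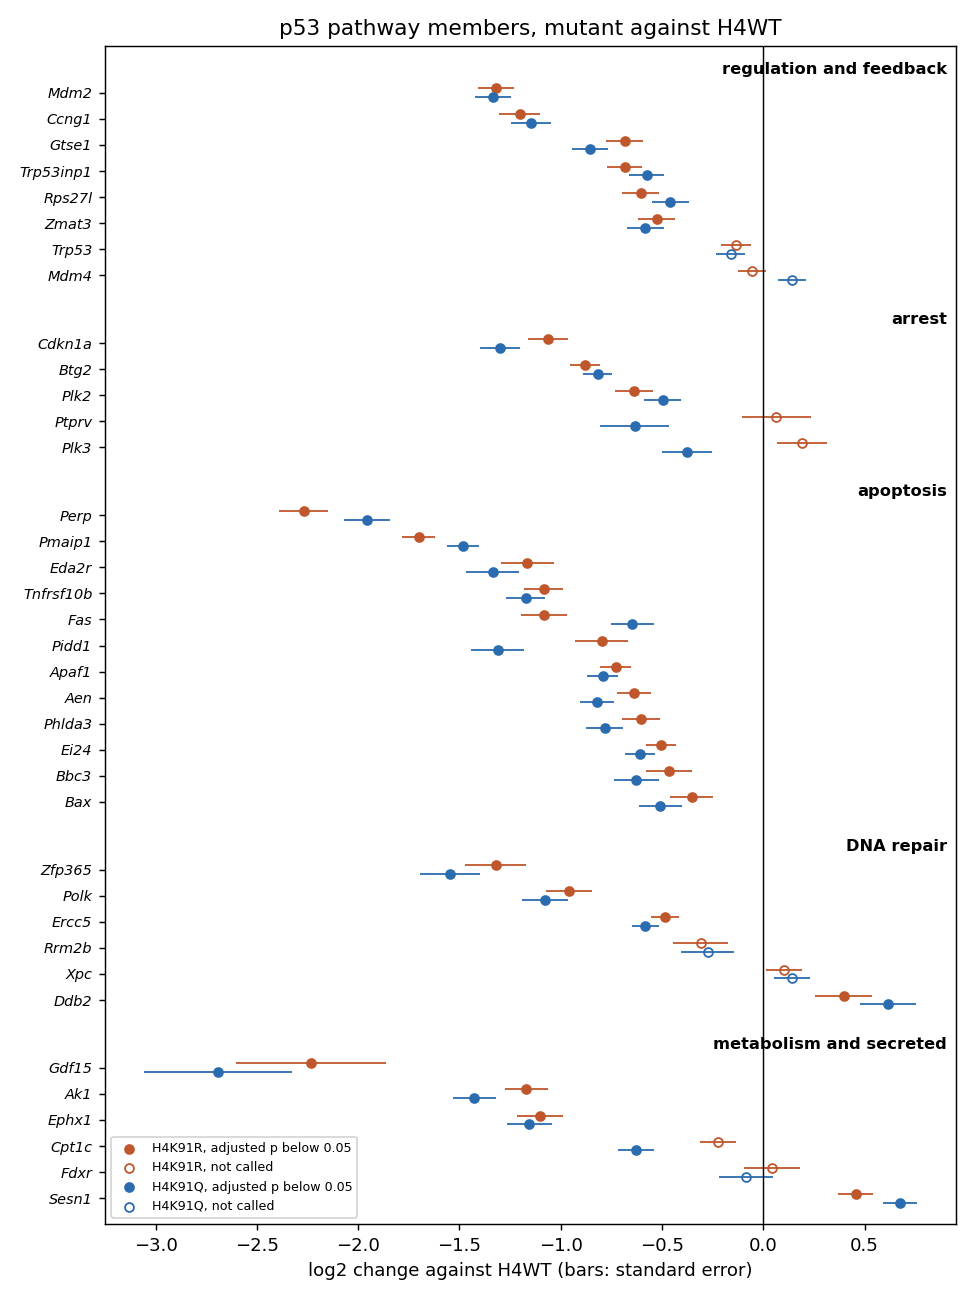
Log2 change of each of the 37 members against H4WT, with standard errors, sorted by outcome; filled points passed the test. All 12 apoptosis members lie left of 0 in both mutants, and Sesn1 and Ddb2 lie right of it.

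Regulation and feedback genes fell in both mutants, except Trp53 and Mdm4. In each mutant 6 of the 8 fell and 0 rose. Trp53, the gene for p53 (Entrez 22059, chromosome 11, 69580348 to 69591873), stood at 120, 112 and 132 CPM in H4WT, at 116, 105 and 110 CPM in H4K91R and at 106, 110 and 109 CPM in H4K91Q. The H4WT and H4K91R libraries overlapped, and the H4K91Q libraries lay just under the lowest H4WT library. Its log2 change was -0.13 ± 0.073 in H4K91R (SE, adjusted p = 0.153) and -0.16 ± 0.073 in H4K91Q (adjusted p = 0.0871). With the replicate number as a block in a fit of H4WT and H4K91Q alone, an alternative chosen after seeing the data, the H4K91Q value passed (-0.15, adjusted p = 0.0431), and in the block fit over all 9 libraries it did not (-0.16, adjusted p = 0.107). Without H4WT replicate 2 it passed the test (-0.22, adjusted p = 0.0329), and with library size scaling the sign turned without a call in either mutant (0.05 and 0.01).

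Mdm2, the ubiquitin ligase that degrades p53 (Entrez 17246, chromosome 10, 117688875 to 117710758), stood at 508, 431 and 468 CPM in H4WT, at 213, 180 and 170 CPM in H4K91R and at 191, 187 and 178 CPM in H4K91Q. Every mutant library lay far below the lowest H4WT library. The log2 change was -1.32 ± 0.09 in H4K91R and -1.34 ± 0.09 in H4K91Q, which left 40.0% and 39.6% of the H4WT mean (adjusted p = 2.42e-07 and 3.88e-07). Between the mutants Mdm2 changed by -0.02 ± 0.089. Mdm4, the partner of Mdm2 that blocks p53 activity (Entrez 17248, chromosome 1, 132986105 to 133030587), was not called, at -0.06 ± 0.069 in H4K91R and 0.14 ± 0.068 in H4K91Q. It passed as a rise in H4K91Q with library size scaling (0.31) and with libraries thinned to equal totals (0.20).

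Ccng1, cyclin G1, which acts with a phosphatase on Mdm2 (Entrez 12450, chromosome 11, 40748552 to 40755309), carried the most counts of the members. It stood at 1553, 1355 and 1496 CPM in H4WT, at 731, 599 and 582 CPM in H4K91R and at 726, 668 and 595 CPM in H4K91Q, so the highest mutant library lay far below the lowest H4WT one. It fell by 1.20 ± 0.10 on the log2 scale in H4K91R and by 1.15 ± 0.10 in H4K91Q. Gtse1, a protein of dividing cells that moves p53 out of the nucleus (Entrez 29870, chromosome 15, 85859691 to 85876573), went from 145, 136 and 163 CPM to 103, 90.4 and 81.3 CPM in H4K91R and 80.7, 79.6 and 84.3 CPM in H4K91Q, again without overlap with H4WT. Its log2 changes were -0.68 ± 0.091 and -0.85 ± 0.090.

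Trp53inp1, a stress-induced nuclear protein that acts with p53 (Entrez 60599, chromosome 4, 11156441 to 11174379), stood at 359, 362 and 388 CPM in H4WT, 253, 232 and 204 CPM in H4K91R and 272, 241 and 230 CPM in H4K91Q. Its log2 changes were -0.68 ± 0.088 and -0.58 ± 0.087, and neither mutant overlapped H4WT. Zmat3, a zinc finger RNA-binding protein, changed by -0.53 ± 0.091 and -0.58 ± 0.091. Rps27l, a ribosomal protein relative that binds Mdm2, changed by -0.60 ± 0.091 and -0.46 ± 0.091. Rps27l is close in sequence to Rps27, and how reads were divided between such copies is not known here.

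**Figure D2:**
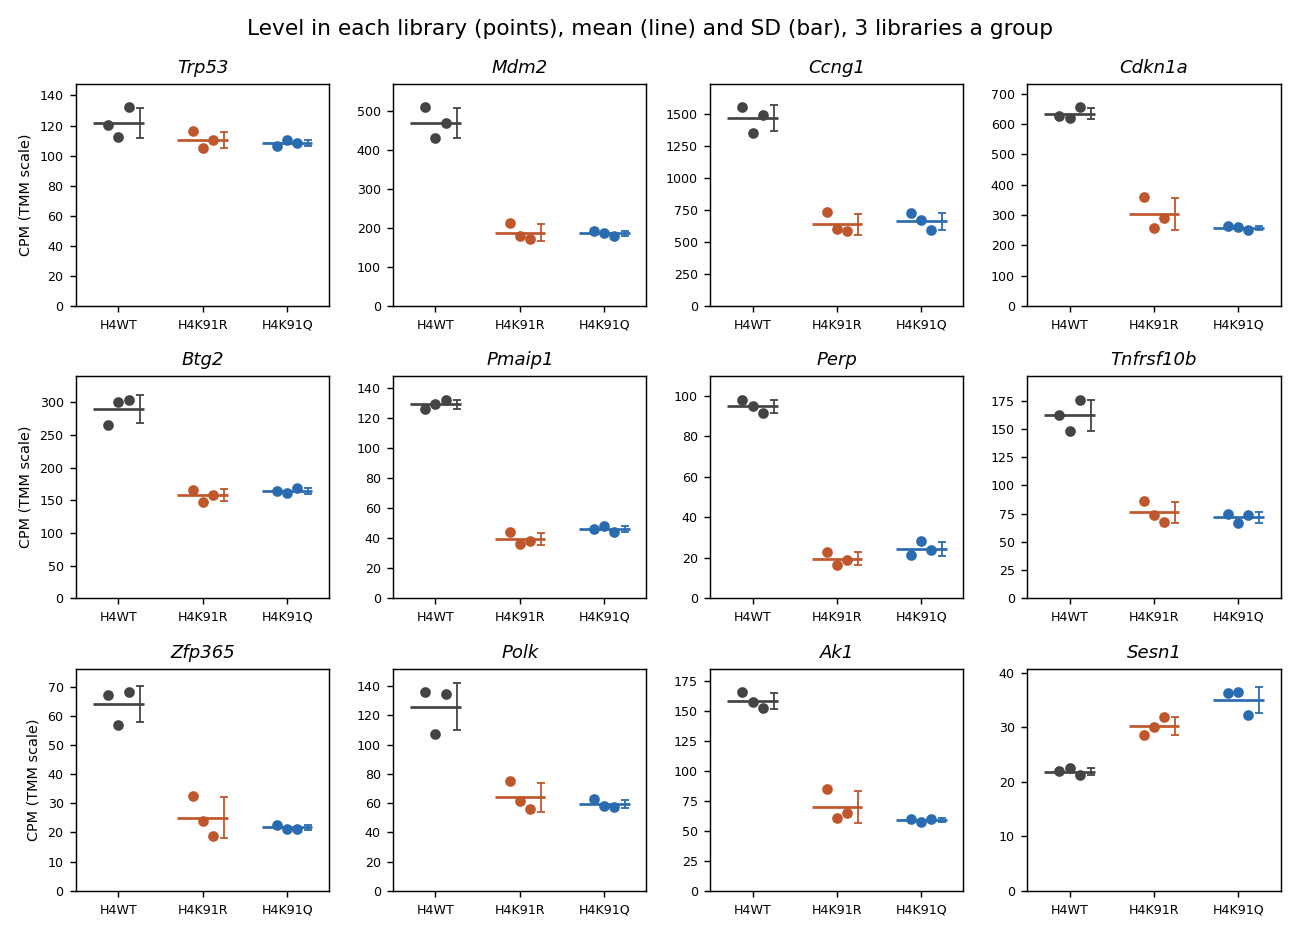
CPM of 12 members in each of the 9 libraries, with the mean (line) and SD (bar) of 3 libraries a group, each panel from 0. Trp53 differs little between groups, 10 members are lower in every mutant library than in every H4WT library, and Sesn1 is higher.

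Of the arrest genes 3 of 5 fell in H4K91R and 5 of 5 in H4K91Q. Cdkn1a encodes p21, the inhibitor of cyclin-dependent kinases through which p53 halts the cell cycle (Entrez 12575, chromosome 17, 29090979 to 29100722). It stood at 625, 620 and 654 CPM in H4WT, at 360, 258 and 291 CPM in H4K91R and at 262, 259 and 250 CPM in H4K91Q. H4WT was the highest group throughout, and the H4K91R libraries were spread more widely than the H4K91Q ones. It fell by 1.06 ± 0.099 on the log2 scale in H4K91R and by 1.30 ± 0.10 in H4K91Q (adjusted p = 2.42e-06 and 9.09e-07).

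Btg2, an antiproliferative cofactor that is also induced in neural progenitors about to form neurons (Entrez 12227, chromosome 1, 134074865 to 134079155), stood at 265, 301 and 304 CPM in H4WT, 166, 148 and 159 CPM in H4K91R and 164, 161 and 169 CPM in H4K91Q. The mutant libraries were all close to each other and below H4WT, with log2 changes of -0.88 ± 0.072 and -0.82 ± 0.072. In each mutant 10 of 12 tested neuronal genes rose, with 0 fallen in H4K91R and 1 in H4K91Q. Of all tested genes 20.9% rose in H4K91R and 22.5% in H4K91Q. A link between the neuronal genes and the Btg2 value was not tested. Plk2, a polo-like kinase (Entrez 20620, chromosome 13, 110395044 to 110400844), went from 363, 292 and 353 CPM to 240, 200 and 206 CPM in H4K91R and 249, 231 and 232 CPM in H4K91Q, with changes of -0.64 ± 0.093 and -0.50 ± 0.092.

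Plk3 and Ptprv fell in H4K91Q and were not called in H4K91R. Plk3, a relative of Plk2 (Entrez 12795, chromosome 4, 117128655 to 117133963), stood at 14.3, 12.1 and 12.9 CPM in H4WT, 15.9, 15.5 and 12.7 CPM in H4K91R and 9.48, 9.67 and 10.9 CPM in H4K91Q. The H4K91R libraries overlapped H4WT and the H4K91Q libraries lay below both. Its log2 change was 0.19 ± 0.12 in H4K91R and -0.38 ± 0.12 in H4K91Q (adjusted p = 0.226 and 0.0238), and the H4K91Q call was lost when libraries were scaled by size (adjusted p = 0.179) or when H4WT replicate 1 (0.0794), H4K91Q replicate 1 (0.0795) or H4K91Q replicate 2 (0.0670) was left out. With libraries scaled by size Plk3 passed as a rise in H4K91R (0.38, adjusted p = 0.0242).

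Ptprv, a receptor-type tyrosine phosphatase (Entrez 13924, chromosome 1, 135108498 to 135132575), stood at 95.6, 80.3 and 84.3 CPM in H4WT, 121, 78.9 and 69.4 CPM in H4K91R and 62.3, 47.1 and 57.5 CPM in H4K91Q. H4K91R replicate 1 was the highest of all 9 libraries and replicate 3 lay under H4WT. The log2 change was 0.06 ± 0.17 in H4K91R, with the sign turned and still no call without H4K91R replicate 1 (-0.22), and -0.64 ± 0.17 in H4K91Q. Exons of Plk3, Ptprv, Cdkn1a, Ddb2, Rrm2b, Ei24 and Cpt1c overlap exons of a gene on the opposite strand, and the strand setting of the counting is not given in the sources used here. Bax shares 192 exon bases with Gm45808 on its own strand, which no strand setting separates.

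All 12 apoptosis genes fell in both mutants. Pmaip1, which encodes the Bcl-2 family protein Noxa that starts the mitochondrial death pathway (Entrez 58801, chromosome 18, 66458604 to 66465558), stood at 126, 129 and 132 CPM in H4WT, at 44.1, 36.3 and 38.3 CPM in H4K91R and at 46.2, 47.9 and 44.2 CPM in H4K91Q. The H4WT libraries were within a few CPM of each other and no mutant library came near them. It fell by 1.70 ± 0.081 on the log2 scale in H4K91R and by 1.48 ± 0.079 in H4K91Q, to 30.7% and 35.7% of the H4WT mean (adjusted p = 3.51e-08 and 1.23e-07).

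Perp, a membrane protein of p53-driven apoptosis that also builds desmosomes (Entrez 64058, chromosome 10, 18845071 to 18857073), had the largest fall of the apoptosis members in both mutants. It stood at 98.0, 95.0 and 91.4 CPM in H4WT, 23.0, 16.7 and 18.9 CPM in H4K91R and 21.4, 28.2 and 23.7 CPM in H4K91Q. Its log2 changes were -2.27 ± 0.12 and -1.96 ± 0.12, which left 20.6% and 25.8% of the H4WT mean. Epithelial markers moved with it: 6 of 9 tested genes of that list fell and 0 rose in H4K91R, 5 fell and 1 rose in H4K91Q, and their summed level was 1415 to 1545 CPM in H4WT, 884 to 989 CPM in H4K91R and 962 to 1093 CPM in H4K91Q. Of that list only Krt5 was under 1 CPM in all libraries. The part of epithelial cells in the Perp value was not tested.

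Of the death receptors, Tnfrsf10b, the receptor for TRAIL (Entrez 21933, chromosome 14, 69767472 to 69784411), stood at 162, 148 and 176 CPM in H4WT, 86.3, 73.8 and 67.9 CPM in H4K91R and 74.7, 66.3 and 74.1 CPM in H4K91Q. It fell by 1.08 ± 0.096 and by 1.17 ± 0.095 on the log2 scale, with no overlap. Fas, the receptor for Fas ligand (Entrez 14102, chromosome 19, 34290647 to 34327775), was among the low members, at 13.9, 15.9 and 15.1 CPM in H4WT, 6.96, 6.92 and 7.48 CPM in H4K91R and 10.2, 9.12 and 9.55 CPM in H4K91Q. The 3 groups did not overlap, with H4K91R lowest, and the log2 changes were -1.08 ± 0.11 and -0.65 ± 0.11. Eda2r, the receptor for an ectodysplasin form, changed by -1.16 ± 0.13 and -1.33 ± 0.13.

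Apaf1, the scaffold of the apoptosome that activates caspases (Entrez 11783, chromosome 10, 90989311 to 91082743), stood at 247, 251 and 276 CPM in H4WT, 170, 152 and 144 CPM in H4K91R and 153, 140 and 153 CPM in H4K91Q, and changed by -0.73 ± 0.078 and -0.79 ± 0.077. Pidd1, the death-domain protein of the caspase-activating PIDDosome (Entrez 57913, chromosome 7, 141438113 to 141447565), stood at 57.4, 59.6 and 61.6 CPM in H4WT, 42.4, 29.3 and 30.2 CPM in H4K91R and 24.2, 20.8 and 27.0 CPM in H4K91Q. The groups again did not overlap, here with H4K91Q lowest, and the log2 changes were -0.80 ± 0.13 and -1.31 ± 0.13.

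The other apoptosis members changed less than these in H4K91R. Aen, a nuclease, Phlda3, an inhibitor of Akt, and Ei24, an endoplasmic reticulum protein, changed by -0.64, -0.60 and -0.51 in H4K91R and by -0.82, -0.78 and -0.61 in H4K91Q. Bbc3, which encodes Puma, and Bax, which opens the mitochondrial membrane, changed by -0.46 ± 0.11 and -0.35 ± 0.11 in H4K91R and -0.63 ± 0.11 and -0.51 ± 0.11 in H4K91Q. In H4K91R scaling by library size ended both calls (adjusted p = 0.0586 for Bbc3 and 0.203 for Bax), and that of Bax also without H4WT replicate 1 (0.0598) or H4K91R replicate 2 (0.0609).

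**Figure D3:**
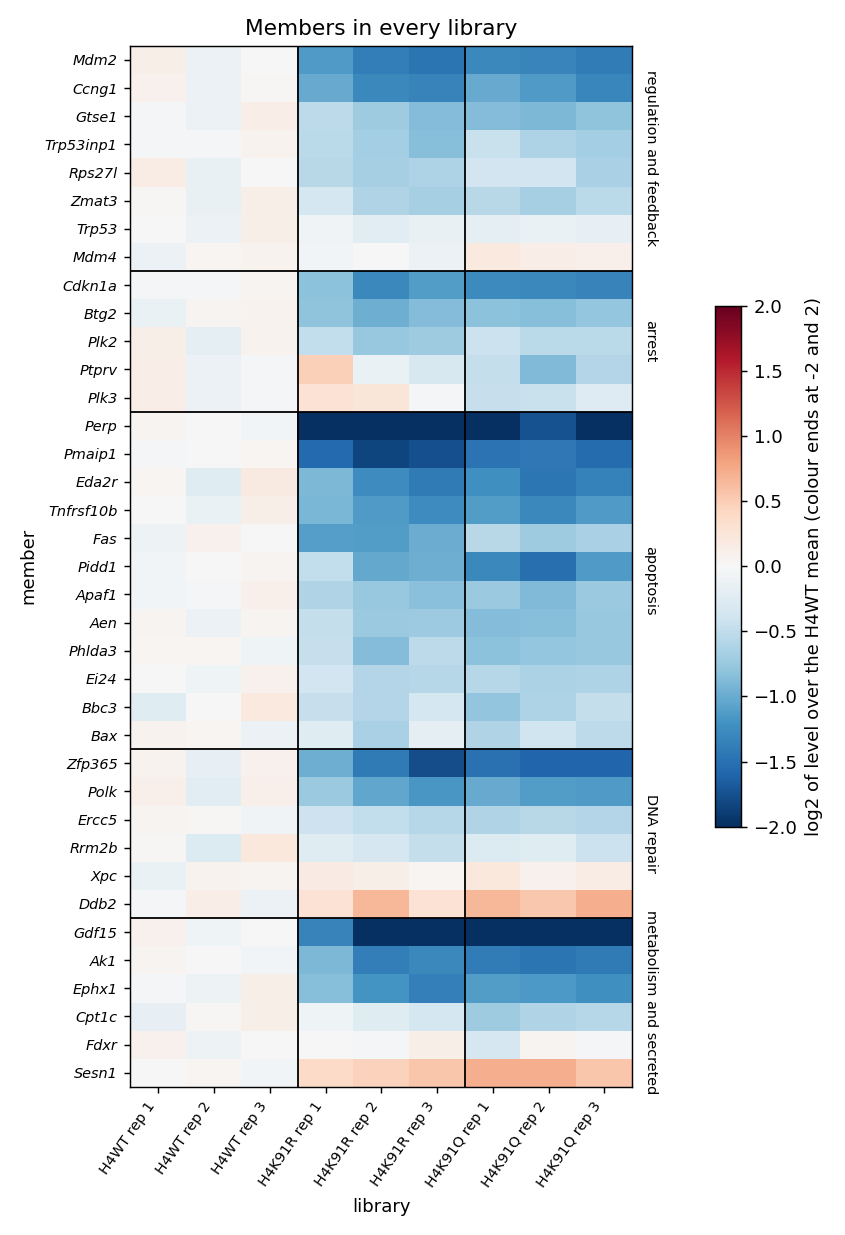
Log2 of each member's level over its H4WT mean in each of the 9 libraries, sorted by outcome, with colours ending at -2 and 2. Blue fills most rows in all 6 mutant libraries, with H4K91R replicate 1 the palest among them.

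The DNA repair genes were divided, with 3 of 6 fallen and 1 risen in each mutant. Zfp365, a zinc finger protein linked to genome stability (Entrez 216049, chromosome 10, 67886105 to 67912662), stood at 67.0, 56.7 and 68.0 CPM in H4WT, 32.5, 23.9 and 18.7 CPM in H4K91R and 22.6, 21.3 and 21.3 CPM in H4K91Q. It fell by 1.32 ± 0.15 and by 1.55 ± 0.15 on the log2 scale. Polk, a polymerase that copies past damaged bases (Entrez 27015, chromosome 13, 96480687 to 96542579), went from 136, 107 and 135 CPM to 75.1, 61.3 and 55.9 CPM in H4K91R and 62.5, 57.7 and 57.5 CPM in H4K91Q. Neither gene's mutant libraries overlapped H4WT, and Polk changed by -0.96 ± 0.11 and -1.08 ± 0.11.

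The nucleotide excision repair genes did not move as 1 group. Ercc5, the endonuclease that cuts beside a lesion (Entrez 22592, chromosome 1, 44146948 to 44181260), stood at 96.4, 94.8 and 88.4 CPM in H4WT, 70.2, 66.4 and 63.0 CPM in H4K91R and 61.5, 63.6 and 61.9 CPM in H4K91Q, with changes of -0.49 ± 0.069 and -0.58 ± 0.068. Ddb2, a damage sensor of the same pathway (Entrez 107986, chromosome 2, 91211545 to 91237132), rose, from 6.97, 7.82 and 6.61 CPM to 8.69, 11.2 and 8.76 CPM in H4K91R and 11.3, 10.3 and 11.8 CPM in H4K91Q. All mutant libraries lay above H4WT, and the changes were 0.40 ± 0.14 and 0.62 ± 0.14 (adjusted p = 0.0362 and 0.00247).

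The rise of Ddb2 in H4K91R lay near the threshold. It lost its call with limma-voom (adjusted p = 0.0602), with libraries thinned to equal totals (0.0598) and without H4WT replicate 1 (0.0799), H4WT replicate 3 (0.0961) or H4K91R replicate 2 (0.164). Its counts overlap in exon position with Acp2 on the opposite strand. Xpc, another damage sensor, was not called (0.10 ± 0.089 and 0.14 ± 0.087), nor was Rrm2b, a ribonucleotide reductase subunit that supplies nucleotides for repair (-0.31 ± 0.14 and -0.27 ± 0.13). Rrm2b passed as a fall in both mutants without H4WT replicate 2 (-0.45 and -0.43), and Xpc passed as a rise in both with library size scaling (0.29 and 0.31).

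Of the metabolic and secreted members 3 of 6 fell and 1 rose in H4K91R, and 4 fell and 1 rose in H4K91Q. Ak1, an adenylate kinase (Entrez 11636, chromosome 2, 32621758 to 32635058), stood at 165, 158 and 152 CPM in H4WT, 85.2, 60.6 and 64.6 CPM in H4K91R and 60.0, 57.3 and 59.5 CPM in H4K91Q, and fell by 1.17 ± 0.11 and by 1.43 ± 0.11 on the log2 scale. Ephx1, the microsomal epoxide hydrolase (Entrez 13849, chromosome 1, 180989556 to 181017569), stood at 78.4, 75.3 and 87.4 CPM in H4WT, 44.7, 35.2 and 31.1 CPM in H4K91R and 37.1, 36.3 and 34.4 CPM in H4K91Q, with changes of -1.10 ± 0.11 and -1.16 ± 0.11. For both genes every mutant library lay well below every H4WT library.

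Gdf15, a secreted stress cytokine (Entrez 23886, chromosome 8, 70629393 to 70632470), had the largest change of the 37 members in H4K91Q. It also had the lowest count of any member in a library, at 8. It stood at 12.3, 10.9 and 11.4 CPM in H4WT, 4.55, 1.26 and 0.788 CPM in H4K91R and 2.02, 1.59 and 1.64 CPM in H4K91Q. H4K91R replicate 1 held several times the level of the other H4K91R libraries and still lay below H4WT. The log2 changes were -2.23 ± 0.37 and -2.69 ± 0.37 (adjusted p = 2.88e-04 and 6.46e-05).

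Sesn1, a sestrin that restrains mTORC1 under stress (Entrez 140742, chromosome 10, 41810574 to 41908436), went the other way. It stood at 22.0, 22.5 and 21.2 CPM in H4WT, 28.7, 30.0 and 32.0 CPM in H4K91R and 36.3, 36.4 and 32.3 CPM in H4K91Q, with the groups in that order and without overlap. It rose by 0.46 ± 0.087 and 0.67 ± 0.085 (adjusted p = 8.28e-04 and 3.39e-05), and its adjusted p stayed between 2.40e-09 and 0.00404 over both comparisons and every alternative. Fdxr, a mitochondrial ferredoxin reductase, was not called (0.04 ± 0.14 and -0.08 ± 0.13).

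Between the mutants few members differed: 4 were lower and 1 was higher in H4K91Q than in H4K91R, against 2.78% and 2.37% of all tested genes (5.16% in either direction). Lower were Plk3 (-0.57 ± 0.12, adjusted p = 0.0193), Cpt1c (-0.41 ± 0.089, 0.0230), Ptprv (-0.70 ± 0.17, 0.0340) and Pidd1 (-0.51 ± 0.13, 0.0450), and Fas was higher (0.44 ± 0.11, 0.0455). Cpt1c, a brain relative of the carnitine palmitoyltransferases (Entrez 78070, chromosome 7, 44958483 to 44974880), stood at 76.2, 87.1 and 92.6 CPM in H4WT, 80.2, 72.0 and 66.8 CPM in H4K91R and 52.0, 56.2 and 57.6 CPM in H4K91Q. H4K91R overlapped H4WT (-0.22 ± 0.090, adjusted p = 0.0584) and H4K91Q lay below both (-0.63 ± 0.090, adjusted p = 9.43e-05).

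None of these 5 differences between the mutants held in every alternative. Fas kept its call in 2 of the 18 alternatives, the filter at a mean of 1 CPM and limma-voom. Without H4K91R replicate 1 or 2, or without H4K91Q replicate 1 or 2, 0 members passed the test between the mutants with edgeR, and 10, 13, 8 and 7 members had an unadjusted p below 0.05 there. These fits have fewer libraries, and the log2 differences in them were -0.55 to -0.50 for Plk3, -0.43 to -0.33 for Cpt1c, -0.79 to -0.42 for Ptprv, -0.61 to -0.31 for Pidd1 and 0.39 to 0.47 for Fas. With all libraries DESeq2 called 4 members and limma-voom 5, and 12 had an unadjusted p below 0.05 with edgeR. In that edgeR fit 3299 of all 14761 tested genes had an unadjusted p below 0.05 too. All genes were not counted in this way in the fits without 1 library, so the unadjusted member counts there show no excess. The median over the members was -0.09 on the log2 scale, with 0.01 over all tested genes, and it was 0.02 without H4K91R replicate 1, the library that stood apart among the members.

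**Figure D4:**
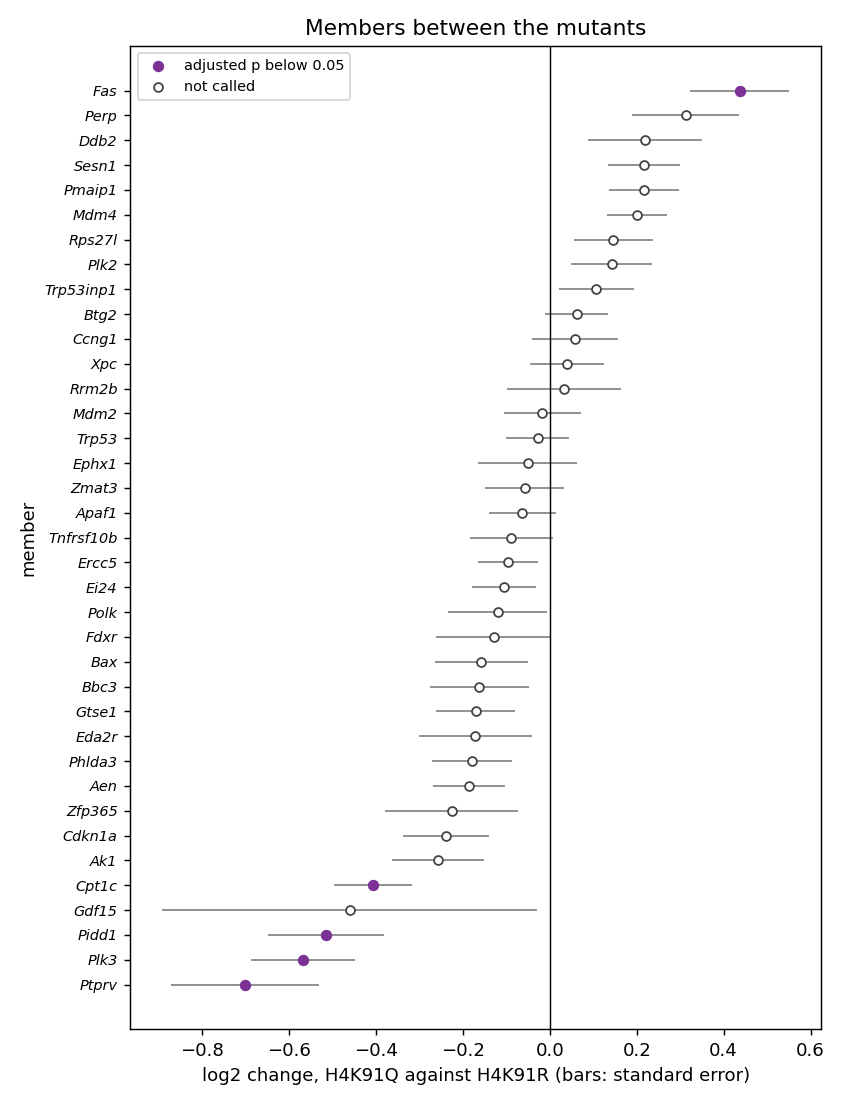
Log2 change of each member between H4K91Q and H4K91R, with standard errors; filled points passed the test. The 5 called members are Fas on the right and Cpt1c, Pidd1, Plk3 and Ptprv on the left, and most others lie within 0.3 of 0.

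Other p53 targets, a list of 63 tested genes outside the 37, fell more often than they rose. The list was chosen with earlier results of these data known, so it is not independent support. In H4K91R 38 fell and 6 rose, with a median log2 change of -0.35, and in H4K91Q 36 fell and 6 rose, with a median of -0.37. The fallen shares were 60.3% and 57.1%, against 25.1% and 23.8% of all tested genes. The risen share was 9.52% in each mutant, against 20.9% and 22.5%. Thbs1, the matrix protein thrombospondin, had the lowest p, at -2.73 ± 0.16 and -3.03 ± 0.16. Its level was 2068 ± 366 CPM in H4WT and 311 ± 61.1 and 254 ± 40.1 CPM in H4K91R and H4K91Q (SD, n = 3). Epha2, an ephrin receptor, changed by -2.58 ± 0.19 in H4K91Q. Among the risen genes, Tspan11, a tetraspanin, changed by 1.58 ± 0.12 and 1.99 ± 0.12, and Trp53i11 by 1.38 ± 0.10 in H4K91R. With library size scaling the list had 24 fallen and 10 risen genes in H4K91R and 28 fallen and 9 risen in H4K91Q. That is 38.1% and 44.4% fallen beside 13.6% and 14% of all tested genes.

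Activators and modifiers of p53 fell in part. Of 33 tested, 15 fell and 4 rose in H4K91R, and 14 fell and 2 rose in H4K91Q, with medians of -0.21 and -0.16. The fallen shares were 45.5% and 42.4%, beside 25.1% and 23.8% of all tested genes. The risen shares were 12.1% and 6.06%, beside 20.9% and 22.5%. Cdkn2a, whose Arf product restrains Mdm2, changed by -0.98 ± 0.11 and -0.81 ± 0.10. Ppp1r13l, which encodes the p53 inhibitor iASPP, changed by -1.11 ± 0.13 and -1.31 ± 0.13. Atr, a damage kinase, changed by -0.63 ± 0.083 in H4K91R and Pml, of nuclear bodies, by -0.62 ± 0.081 in H4K91Q. With library size scaling 18.2% of the list fell and 18.2% rose in H4K91R, against 13.6% and 34.1% of all tested genes, and 24.2% fell and 24.2% rose in H4K91Q, against 14% and 37.6%.

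Cell cycle genes that p53 represses through p21 and the DREAM complex changed little. Of 35 tested, 3 rose and 1 fell in H4K91R and 7 rose and 1 fell in H4K91Q, with medians of -0.01 and 0.05, and the sign of the first turned with RLE scaling (0.01). The risen shares were 8.57% in H4K91R and 20% in H4K91Q, both under the 20.9% and 22.5% of all tested genes. The fallen share was 2.86% in each mutant, beside 25.1% and 23.8% of all tested genes. E2f1, a transcription factor of S phase entry, changed by 0.35 ± 0.083 and 0.30 ± 0.081. Aurkb, a mitotic kinase, rose by 0.32 ± 0.071 and Cenpe, a kinetochore motor, fell by 0.34 ± 0.093 on the log2 scale in H4K91R. Mcm6, of the replicative helicase, rose by 0.37 ± 0.067 and Nusap1, a spindle protein, by 0.38 ± 0.069 in H4K91Q. Their summed level was 3660 to 3820 CPM in H4WT, 3690 to 3809 CPM in H4K91R and 3892 to 3984 CPM in H4K91Q. With library size scaling 14 rose and 0 fell in H4K91R and 19 rose and 0 fell in H4K91Q, that is 40% and 54.3% risen beside 34.1% and 37.6% of all tested genes.

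In the Bcl-2 family and caspase list, 8 of 22 tested genes fell and 3 rose in H4K91R, and 5 fell and 5 rose in H4K91Q. Bak1, a pore-forming relative of Bax, changed by -0.44 ± 0.077 and -0.46 ± 0.076. Some pro-death members rose, in contrast to Pmaip1 and Bbc3: Bmf by 1.06 ± 0.15 and 1.15 ± 0.15, Hrk by 1.20 ± 0.21 in H4K91R and Bcl2l11, which encodes Bim, by 0.73 ± 0.12 in H4K91Q. The H4K91Q shares were near the 23.8% fallen and 22.5% risen of all tested genes. In H4K91R 36.4% of the list fell and 13.6% rose, beside 25.1% and 20.9% of all tested genes. With library size scaling 2 fell and 6 rose in H4K91R and 2 fell and 9 rose in H4K91Q, that is 27.3% and 40.9% risen beside 34.1% and 37.6% of all tested genes.

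**Figure D5:**
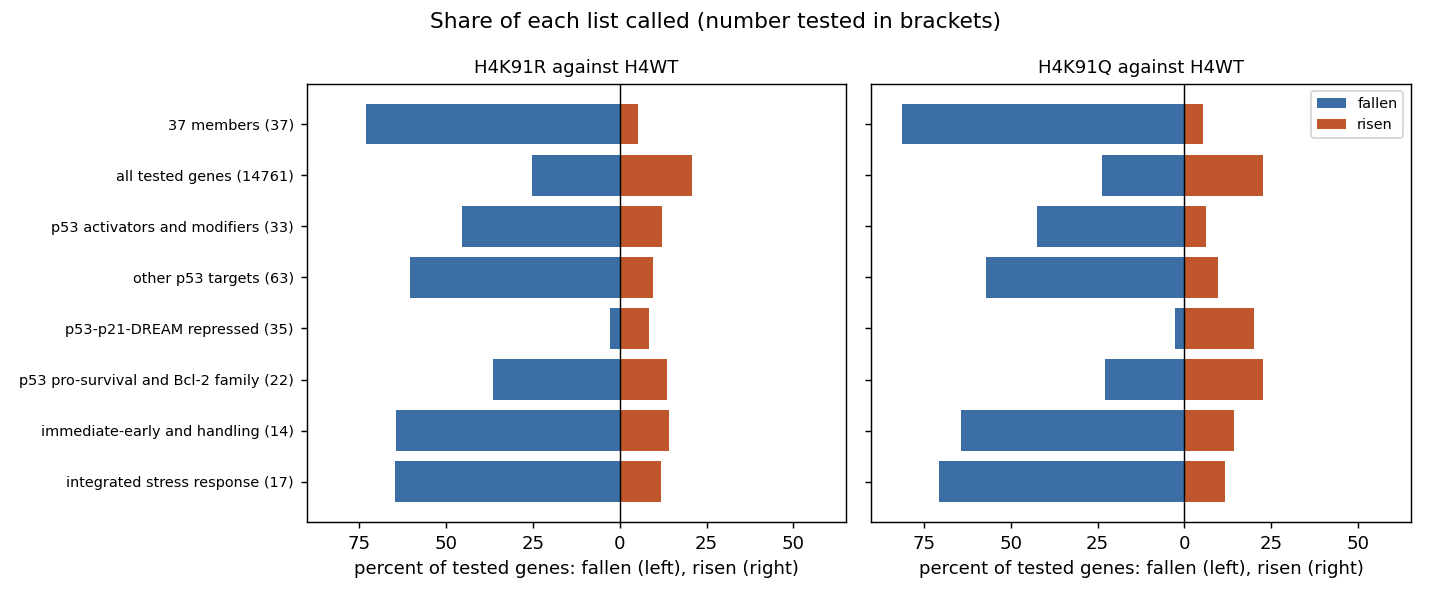
Percent of the tested genes of each list that fell (left bars) or rose (right bars) in each mutant against H4WT, with the number tested in brackets, for the 37 members, all 14761 tested genes and 6 pathway and stress lists. Of the sets drawn, the members have the longest bar for fallen genes and the cell cycle list the shortest.

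Stress genes and markers of smooth muscle, epithelium and in part endoderm fell where the members fell, and markers of other cell types did not all do so. Of 17 integrated stress response genes 11 fell and 2 rose in H4K91R, and 12 fell and 2 rose in H4K91Q, with a summed level of 3043 to 3308 CPM in H4WT, 2449 to 2575 CPM in H4K91R and 2539 to 2741 CPM in H4K91Q. Of 14 immediate-early and handling genes 9 fell and 2 rose in each mutant, from 931 to 1058 CPM in H4WT to 720 to 834 CPM in H4K91R and 790 to 846 CPM in H4K91Q. Of all tested genes 25.1% fell in H4K91R and 23.8% in H4K91Q. With library size scaling 6 of the stress response genes fell and 2 rose in each mutant. Of the immediate-early and handling genes 7 then fell in H4K91R and 9 in H4K91Q, with 2 risen in each. The shares of all tested genes fallen were 13.6% and 14% there. No gene of either list was at 0 in all libraries. Atf3, a stress factor on both lists, changed by -1.76 ± 0.11 and -1.78 ± 0.11.

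The summed smooth muscle level was 4292 to 5147 CPM in H4WT, 541 to 847 CPM in H4K91R and 533 to 584 CPM in H4K91Q, and no smooth muscle marker was at 0 in all libraries. The fibroblast and matrix sum overlapped between H4WT and H4K91R, at 6639 to 7481, 7056 to 7923 and 7529 to 8335 CPM in the 3 groups. Pluripotency genes moved in opposite directions, with 9 of 11 fallen in H4K91R and 8 risen and 1 fallen in H4K91Q, while most p53 members fell in both. Of the fibroblast and matrix genes 4 rose and 3 fell in H4K91R and 3 rose and 3 fell in H4K91Q. Of 7 tested endoderm genes 3 fell and 1 rose in H4K91R, and 4 fell and 1 rose in H4K91Q. Endoderm markers summed to 925 to 1053 CPM in H4WT, 835 to 888 CPM in H4K91R and 767 to 829 CPM in H4K91Q. Blood and endothelial markers summed to 29.1 to 33.2, 26.0 to 28.5 and 31.1 to 34.2 CPM, with Hbb-bs at 0 and Ptprc and Gata1 under 1 CPM in all libraries. The part of these markers, of stress and of handling in the fall of the members was not tested.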

How the data were processed

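RNA was extracted with QIAGEN RNeasy, and poly(A) libraries were built with NEBNext Ultra II reagents, per the labels' protocols. The authors deposited expected counts per Entrez gene, all whole numbers, for which Salmon 0.8.2 and mm10 are named, per the submitters' processing notes. DESeq2 is named there too, with no role. For annotation, rounding, trimming and strand the sources used here give nothing.

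Of 24100 IDs, 24045 matched a symbol in RefSeq's GRCm38.p6 table, the source of all coordinates. The other 55 held 0.0370% to 0.0584% of a library's counts. Genes were filtered with filterByExpr (edgeR 4.0.16 in R 4.3.3, minimum count 10), scaled by TMM (factors 0.911 to 1.06) and fitted with a quasi-likelihood model over all 9 libraries, with 1 mean a group. The biological coefficient of variation was 8.82%. Tests were two-sided, adjusted (Benjamini-Hochberg) over 14761 genes. Standard errors were derived from log2 change and F. A count of 0 would allow 3 counts, 0.111 to 0.367 CPM. Replicates differed by 4.38 to 11.5 times counting noise (chi-square per gene), so none was a duplicate. The fit was tested on simulated data, which held H4WT and a single mutant at a time and few changed genes. The main fit held all 9 libraries and called many more genes, so the recovered shares do not give its power. Of 1.2-fold changes it recovered 10% for H4K91R and 0% for H4K91Q, of 1.5-fold changes 68% and 72%, and of 2-fold changes 80% and 84%.

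The replicate numbers are the labels' own, which do not say that same-numbered libraries shared a day or source. The code common to all library names may be a time point or a clone. It is the same in every library, so it does not link same-numbered ones. Deviations from group means in same-numbered libraries correlated at 0.14 to 0.20 for H4WT and H4K91Q, each above the 0.1 taken to show pairing, at -0.16 to 0.17 for H4WT and H4K91R and at -0.05 to 0.20 between the mutants. A block fit of H4WT and H4K91Q was therefore added after the data were seen. Other-numbered libraries reached 0.26 for H4WT and H4K91R and 0.22 between the mutants. Values above 0.1 thus arose without a shared number too.

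Members and lists were chosen with earlier results of these data known. Of 270 listed names 268 matched. Library values are given for Trp53, Cdkn1a, Mdm2, up to 4 members per outcome with the lowest joint-test p and members called between mutants, and from each pathway list up to 3 called genes per mutant. Alternatives were RLE or library size scaling, other filters, DESeq2 1.42.0, limma-voom (limma 3.58.1), a replicate block, compared groups only, thinning and leaving out each library.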

Additional observations from a re-analysis of the deposited data

Results flagged for a closer look

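The effects of H4K91R and H4K91Q differed for 5 members by the direct test between the mutants (edgeR, Benjamini-Hochberg over 14761 genes). The log2 change of H4K91Q against H4K91R was -0.57 for Plk3, -0.41 for Cpt1c, -0.70 for Ptprv, -0.51 for Pidd1 and 0.44 for Fas. Plk3, Cpt1c and Ptprv were called against H4WT in H4K91Q and not in H4K91R. Fas and Pidd1 fell in both mutants, Fas further in H4K91R and Pidd1 further in H4K91Q. Over all alternatives and the full fit the adjusted p ran from 0.00325 to 0.0852 for Plk3, from 0.00133 to 0.0963 for Cpt1c, from 0.00127 to 0.132 for Ptprv, from 0.00734 to 0.175 for Pidd1 and from 0.0431 to 0.150 for Fas.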

How the results depend on the processing

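Of the members called against H4WT, 25 of 27 fallen and 1 of 2 risen in H4K91R, and 29 of 30 fallen and 2 of 2 risen in H4K91Q, kept their call and direction in every alternative (18, and for H4K91Q 1 more added after seeing the data). Bbc3, Bax, Ddb2 and Plk3 did not. No called change reversed, and 21 values without a call changed sign. The fallen count was 25 to 27 in H4K91R and 29 to 30 in H4K91Q over 9 alternatives that keep all libraries or all those compared, and 26 to 28 and 29 to 32 when 1 library was left out. The risen count in H4K91R was 4 with library size scaling and 1 with limma-voom or thinning, and 1 to 2 without 1 library. In H4K91Q it was 4 with library size scaling and 2 without any 1 library. Between the mutants the risen count was 0, in place of 1, with RLE scaling, library size scaling, no filter on low counts, DESeq2, the compared groups only, thinning and the replicate block. It was 0 in every fit without 1 library, where the fallen count ran from 0 to 4. The replicate block over all 9 libraries changed no other call. The pairing check was met for H4WT and H4K91Q only, and the replicate block fitted to those 2 groups, which tests fewer libraries and genes, gave 31 fallen and 2 risen, the added call being Trp53. Other-numbered libraries correlated at -0.24 to 0.04 there. The joint test over the 3 groups, run under alternatives chosen after seeing the data, called 32 to 34 members, with 32 in the full fit. Depth limits Gdf15 most, with 8 counts in its lowest library.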

Other observations

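The level of each member per kilobase of exon (CPM divided by the union of its GENCODE exons) was compared between genes in H4WT. Rps27l was highest, at 495 CPM per kilobase, followed by Ccng1 at 418, Bax at 269, Cdkn1a at 233 and Mdm2 at 149. Trp53 stood at 65.1 CPM per kilobase, rank 12 of 37. The lowest were Fdxr at 4.43, Rrm2b at 3.31 and Ddb2 at 3.07 CPM per kilobase. In H4K91Q the order at the top was Rps27l at 359, Bax at 189 and Ccng1 at 189 CPM per kilobase. Salmon's own transcript lengths were not used here, so that these levels depend on the exon union taken as length.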
